A study of Caenorhabditis elegans with 12 samples.

Results

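The nematode-specific peptide families nspa, nspb, nspc, nspd and nspe were followed in small RNA libraries of young adult Caenorhabditis elegans hermaphrodites. Members were taken by gene name, which gave 64 of the 32238 genes counted: 12 nspa, 12 nspb, 20 nspc, 12 nspd and 8 nspe genes. The measured quantity was the number of small RNA reads on the strand opposite to each gene (antisense count), so it reports small RNAs directed against a gene and not its messenger RNA. Each strain gave 3 libraries from independent worm populations. The strains were the double mutant that carries age-1(hx546) and rde-4(ne301), the single mutant age-1(hx546), the single mutant rde-4(ne301), and wild type N2 (WT). All were grown at 20 °C on E. coli OP50, synchronized by bleaching, and collected whole on day 1 of adulthood before embryos could be seen, so every tissue and any stored sperm contributed RNA. Library preparation favored small RNAs with a 5′ monophosphate, the form left by Dicer cleavage.

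RDE-4 is a double-stranded RNA-binding protein that works with Dicer in making primary endogenous small interfering RNAs (endo-siRNAs). One such pathway loads the Argonautes ALG-3 and ALG-4 in the spermatogenic germline. The kinase AGE-1, a PI3K, acts in the insulin/IGF-1 pathway. The nsp genes encode short peptides found in nematodes, in families of similar copies, and the nspd genes are known for their expression in spermatogenic germ cells. Roles of the nspa, nspb, nspc and nspe peptides are left out here.

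Total antisense counts ranged between 2449703 and 3590005 per library, and the 64 genes together received 3100 counts over the 12 libraries. TMM scaling factors over the 12 libraries lay between 0.43 and 1.73, with the 3 double mutant libraries lowest (0.43 to 0.60). Scaling by library totals in place of TMM moved the median log2 fold change of all tested genes to -1.32, against 0.02 with TMM, for age-1; rde-4 against age-1, and to -0.88, against -0.04 with TMM, for age-1; rde-4 against rde-4. The shift was smaller for rde-4 against WT (-0.24, against 0.06 with TMM) and for age-1 against WT (-0.05, against -0.17 with TMM). Raw counts are given below for this reason, and fold changes of age-1; rde-4 are read relative to those medians. Antisense counts give no check of the rde-4 or age-1 alleles themselves. The comparisons share libraries: age-1 against WT shares the WT libraries with rde-4 against WT, and the age-1 libraries with age-1; rde-4 against age-1.

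Nearly all antisense small RNAs of these families lay opposite nspd and nspa genes. The nspd genes held 2512 of the 3100 counts (81.0%) and the nspa genes 547 (17.6%), and every one of these 24 genes had at least 1 count. The 40 nspb, nspc and nspe genes together held 41 counts (1.32%), and 16 of them had 0 counts in all 12 libraries. A count of 0 covers counting error only, as do all intervals below, since reads without molecular identifiers are not independent molecules. The subfamilies with most counts had the shorter genes: median counted lengths were 216 bases for nspd and 105 for nspa, against 363 for nspb, 389 for nspc and 318 for nspe. Counts did not follow length gene by gene: nspa-11, of 81 bases, had 1 count, and nspe-1 and nspe-2, of 216 bases each, had 0.

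Exon number separated the subfamilies in a similar way, though not gene by gene. In the build WBcel235 all 12 nspd and all 12 nspa genes had a single exon, while all 12 nspb, 18 of 20 nspc and 6 of 8 nspe genes had 2 exons. The nspd genes were spread over 5 chromosomes, all nspc genes lay on X and all nspe genes on II. An exon of another gene on the opposite strand, whose own sense reads would be counted as antisense here, was annotated for 0 of the 64 genes. Outside exons, nspa-8 and nspb-1, on the minus strand, overlapped the plus-strand genes W06A7.4 and irld-7. Sense reads from outside the exons of these genes were not checked. Of the nspd genes, 5 of 12 (41.7%) lay within 100 kb of a gene for a major sperm protein (msp), against 508 of 19952 other protein-coding genes (2.55%) and 0 genes of each other nsp subfamily. The distance was chosen after the positions were seen, and nspd-7 lay just outside it, at 124.8 kb. The share is a description of position only, since neighboring nspd copies such as nspd-3 and nspd-6 share a locus.

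In rde-4 mutants the nspd small RNAs were largely absent. The nspd sum was 38, 27 and 13 counts in the rde-4 libraries, against 202, 359 and 269 counts in the WT libraries. The groups did not overlap, and the log2 fold change of the sum was -3.01 (SE 0.45, n = 3 each). In age-1; rde-4 the nspd sum was 32, 20 and 18 counts, against 638, 439 and 457 counts in age-1, again without overlap, and the log2 fold change was -3.05 (SE 0.44) with TMM and -4.43 (SE 0.39) with library totals. Sums over copies are given because similar copies can share reads. How a read with several matches was counted is not stated, and a read counted on each copy would enter a sum more than once. In whole animals, fewer cells that make these small RNAs and fewer small RNAs per cell cannot be told apart.

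**Figure D1:**
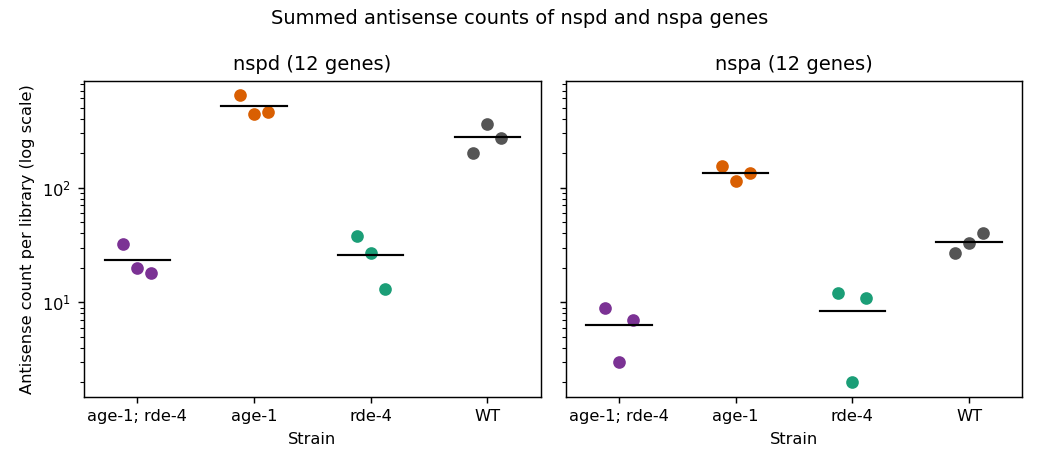
Summed antisense counts of the 12 nspd genes (left) and the 12 nspa genes (right) in each library, on a logarithmic axis, by strain; points are libraries and bars are means of 3. The nspd sums of age-1; rde-4 (18 to 32) and rde-4 (13 to 38) all sit below those of age-1 (439 to 638) and WT (202 to 359).

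Gene by gene, 7 of the 64 members had enough counts to be tested for rde-4 against WT, all of them nspd genes, and 6 passed as lower and 0 as higher. Among all 4797 genes tested, 16.0% were called lower and 10.8% higher. A gene that is near 0 in one strain enters such a test only through the strain where it is high, so the 6 of 7 is read as a description of these genes. The fitted values of these 7 genes were all below 0, and DESeq2 called 0 of 11 members higher. Among genes too low for edgeR, nspa-6 had 2, 0 and 4 counts in rde-4, against 0, 3 and 2 counts in WT, and overlapped. The nspd gene with most counts was nspd-3, a protein-coding gene on the minus strand of chromosome IV (positions 5162826 to 5163041 of WBcel235). It had 0, 1 and 1 counts in rde-4, against 29, 69 and 64 counts in WT, a 63.0-fold lower scaled sum with a counting interval of 17.2 to 525 (edgeR adjusted p = 9.0e-06). Its neighbor nspd-6, at positions 5165511 to 5165726 of the same strand, had 3, 1 and 0 counts in rde-4, against 40, 56 and 43 counts in WT, a log2 fold change of -4.66 (SE 0.59, edgeR adjusted p = 3.9e-05). No rde-4 library reached the lowest WT library for either gene.

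The other called genes followed with smaller or less certain changes. For nspd-1 the counts were 2, 2 and 0 in rde-4, against 36, 41 and 25 in WT, and the log2 fold change was -4.24 (SE 0.62, edgeR adjusted p = 1.1e-04). For nspd-2 they were 0, 2 and 1 in rde-4, against 11, 28 and 23 in WT, a 16.1-fold lower scaled sum with a 95% counting interval of 5.25 to 80.0 (edgeR adjusted p = 5.2e-04). For nspd-5 they were 6, 2 and 0 in rde-4, against 25, 52 and 35 in WT, with a log2 fold change of -3.36 (SE 0.59, edgeR adjusted p = 4.5e-04). The smallest called change was that of nspd-10, with 5, 6 and 1 counts in rde-4, against 23, 35 and 26 counts in WT, and a log2 fold change of -2.41 (SE 0.50, edgeR adjusted p = 0.0016). All 4 genes were separated between the strains.

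A pair of nspd genes fell below the filter on low counts although they were also lower in raw counts. The counts of nspd-4 were 1, 0 and 0 in rde-4, against 7, 26 and 19 in WT, a 40.4-fold lower scaled sum (counting interval 6.94 to 1627). The pseudogene nspd-11 had 0 counts in all 3 rde-4 libraries, against 5, 10 and 5 counts in WT, and was at least 5.18-fold lower if the group is given a floor of 3 counts. DESeq2, which filters differently, called both of them lower, with adjusted p = 0.0023 for nspd-4 and 0.027 for nspd-11, and called 8 of 9 nspd genes lower (7.54% of all genes it tested were lower and 4.62% higher).

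Among the tested nspd genes the exception was nspd-7, a protein-coding gene on the minus strand of chromosome IV (positions 10268975 to 10269187). It had 17, 10 and 9 counts in rde-4, against 23, 37 and 22 counts in WT, and its log2 fold change of -0.81 (SE 0.40) did not pass (edgeR adjusted p = 0.17). In age-1; rde-4 it had 7, 10 and 7 counts, against 58, 30 and 22 counts in age-1, with a log2 fold change of -0.84 (SE 0.52, edgeR adjusted p = 0.18). The second value depended on scaling, on the filter and on single libraries. With library totals it was -2.16 (SE 0.53, edgeR adjusted p = 0.0026). There the median of all genes also moved, from 0.02 with TMM to -1.32, and 52.0% of genes were called lower. With no filter it was -1.53 (edgeR adjusted p = 0.031), where the median of all genes was -0.15 and 7.30% were called lower. Without age-1 replicate 3 it was -1.17 (edgeR adjusted p = 0.049), whereas without age-1 replicate 1 it was -0.29 (edgeR adjusted p = 0.71). Raw counts of nspd-7 did not overlap between the strains in either comparison, but CPM after TMM scaling did.

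Because all nspd genes of a library share its scaling, the share of nspd-7 in the nspd sum needs no scaling factor. It was 36.9% ± 14.2 (SD, n = 3; 21.9% to 50%) in age-1; rde-4, against 6.91% ± 2.14 (4.81% to 9.09%) in age-1. It was 50.3% ± 16.8 (37.0% to 69.2%) in rde-4, against 9.96% ± 1.63 (8.18% to 11.4%) in WT. In both backgrounds every library with the rde-4 mutation lay above every library without it, and nspd-7 was singled out after its values were seen. The pooled counts behind these shares were 24 of 70 in age-1; rde-4 (34.3%, 95% Wilson interval 24.2% to 46%), 110 of 1534 in age-1 (7.17%, 5.98% to 8.57%), 36 of 78 in rde-4 (46.2%, 35.5% to 57.1%) and 82 of 830 in WT (9.88%, 8.03% to 12.1%). With nspd-7 left out, an alternative chosen after the data were seen, the nspd sum had a log2 fold change of -3.75 (SE 0.51) for rde-4 against WT and -3.53 (SE 0.48) for age-1; rde-4 against age-1.

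**Figure D2:**
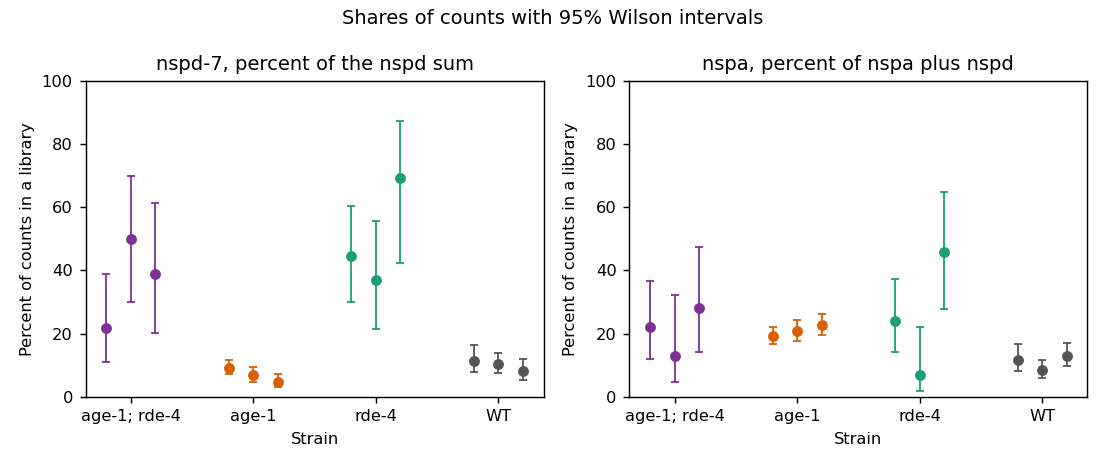
Share of nspd-7 in the nspd sum (left) and share of nspa in nspa plus nspd (right), in percent of counts per library, by strain; bars are 95% Wilson intervals, for counting error only. The nspd-7 share was 21.9% or more in each library with the rde-4 mutation and 11.4% or less in the others, and the nspa share was higher in each age-1 library (19.3% to 22.8%) than in each WT library (8.42% to 12.9%).

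In the age-1 background 13 of the 64 members could be tested for age-1; rde-4 against age-1, 9 nspd and 4 nspa genes. Of these, 12 passed as lower and 0 as higher, where 30.0% of all 4003 tested genes were called lower and 19.1% higher. With library totals, which moved the median of all genes as given above, 13 of 13 members were called lower, and 52.0% of all genes were called lower and 5.67% higher. The fitted values of these 13 genes were all below 0, and DESeq2 called 12 of 14 lower and 0 higher (16.8% and 6.15% of all genes). The 12 genes called lower with TMM were near 0 in age-1; rde-4 and entered the test only through age-1, where they are high. These counts of calls and the common sign are therefore read as a description of the genes. Both nspd-1 and nspd-4 had 0 counts in each age-1; rde-4 library. In age-1, nspd-1 had 50, 40 and 44 counts and nspd-4 had 48, 39 and 34 counts, so with a floor of 3 counts for the group nspd-1 was at least 17-fold and nspd-4 at least 15.4-fold lower in age-1; rde-4. Their edgeR adjusted p-values were 2.0e-05 and 3.1e-05.

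The other tested nspd genes apart from nspd-7 kept small residual counts. Of these, nspd-3 had 5, 3 and 4 counts in age-1; rde-4, against 121, 77 and 90 counts in age-1 (log2 fold change -3.18, SE 0.49, edgeR adjusted p = 4.1e-05). For nspd-5 the counts were 5, 1 and 0 in age-1; rde-4, against 106, 75 and 91 in age-1, a log2 fold change of -4.05 (SE 0.66, edgeR adjusted p = 6.9e-05). For nspd-6 they were 4, 2 and 0 in age-1; rde-4, against 105, 61 and 88 in age-1, a log2 fold change of -3.96 (SE 0.64, edgeR adjusted p = 6.8e-05). For these 3 genes no age-1; rde-4 library had more than 5 counts, and the groups did not overlap. Among the less abundant copies, nspd-2 had 0, 1 and 3 counts in age-1; rde-4, against 42, 46 and 23 counts in age-1 (log2 fold change -3.37, SE 0.71, edgeR adjusted p = 7.9e-04), and nspd-10 had 4, 1 and 3 counts, against 61, 36 and 27 counts in age-1 (log2 fold change -2.55, SE 0.62, edgeR adjusted p = 0.0025). The pseudogene nspd-11 had 2, 1 and 0 counts in age-1; rde-4, against 34, 25 and 29 counts in age-1, 11.2-fold lower (counting interval 3.70 to 55.2; edgeR adjusted p = 8.3e-04).

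**Figure D3:**
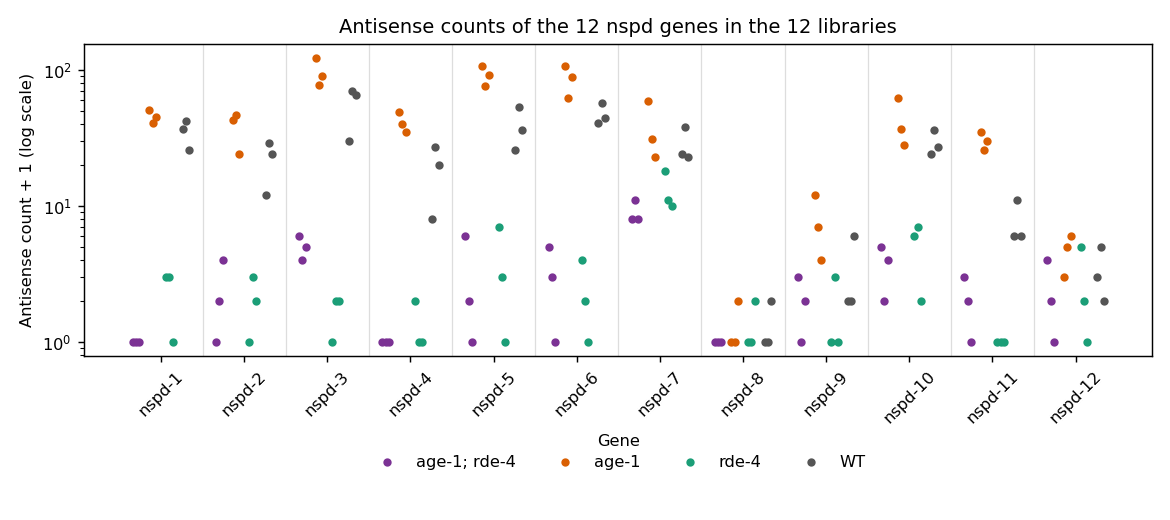
Antisense counts plus 1 of the 12 nspd genes in the 12 libraries on a logarithmic axis; each point is a library, colored by strain in the order age-1; rde-4, age-1, rde-4, WT. For nspd-7 the libraries with the rde-4 mutation keep 7 to 17 counts, while nspd-1 and nspd-4 have 0 counts in all 3 age-1; rde-4 libraries.

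The remaining nspd genes, nspd-8, nspd-9 and nspd-12, were too low to test in any comparison. Over the 12 libraries nspd-8 had 3 counts, nspd-9 had 32 and the pseudogene nspd-12 had 27. Between strains nspd-12 stayed within 0 to 5 counts in every library, and its CPM overlapped in each comparison where it had at least 10 counts. Its ratio of scaled sums was 0.92 for rde-4 against WT and 0.96 for age-1; rde-4 against age-1. The mean share of nspd-12 in the nspd sum was 4.74% in rde-4 (0% to 10.5%), against 0.83% in WT. It was 4.79% in age-1; rde-4 (0% to 9.4%), against 0.77% in age-1. On these few counts, a higher mean share was not particular to nspd-7.

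The nspa small RNAs were also lower in the absence of RDE-4. The nspa sum was 12, 2 and 11 counts in rde-4, against 27, 33 and 40 counts in WT, with a log2 fold change of -1.64 (SE 0.47) and no overlap. In age-1; rde-4 it was 9, 3 and 7 counts, against 153, 115 and 135 counts in age-1, with a log2 fold change of -3.0 (SE 0.47) with TMM and -4.36 (SE 0.43) with library totals. In rde-4 against WT 0 of the 12 nspa genes had enough counts for edgeR, and DESeq2 called 0 of the 2 it tested.

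All 4 nspa genes tested for age-1; rde-4 against age-1 were lower, and they too entered the test only through age-1, where they are high. The gene with most counts, nspa-8, had 1, 0 and 1 counts in age-1; rde-4, against 36, 27 and 26 counts in age-1, a 16.9-fold lower scaled sum (counting interval 4.55 to 142; edgeR adjusted p = 3.2e-04). For nspa-1 the counts were 1, 0 and 2 in age-1; rde-4, against 26, 14 and 19 in age-1, 7.49-fold lower (counting interval 2.44 to 37.3; edgeR adjusted p = 0.0048). For nspa-3 they were 2, 1 and 0 in age-1; rde-4, against 25, 15 and 17 in age-1, 7.23-fold lower (counting interval 2.35 to 36.1; edgeR adjusted p = 0.0058). These 3 genes and nspa-6 did not overlap between the strains. The smallest change was that of nspa-6, with 2, 2 and 1 counts in age-1; rde-4, against 19, 14 and 20 counts in age-1, and a log2 fold change of -1.97 (SE 0.62, edgeR adjusted p = 0.014). It no longer passed without age-1; rde-4 replicate 2 (-2.10, edgeR adjusted p = 0.064), without age-1; rde-4 replicate 3 (-1.74, 0.098), without age-1 replicate 1 (-1.84, 0.072), with all 12 libraries in one edgeR fit (-1.97, 0.055) or with DESeq2 (-2.37, 0.063).

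**Figure D4:**
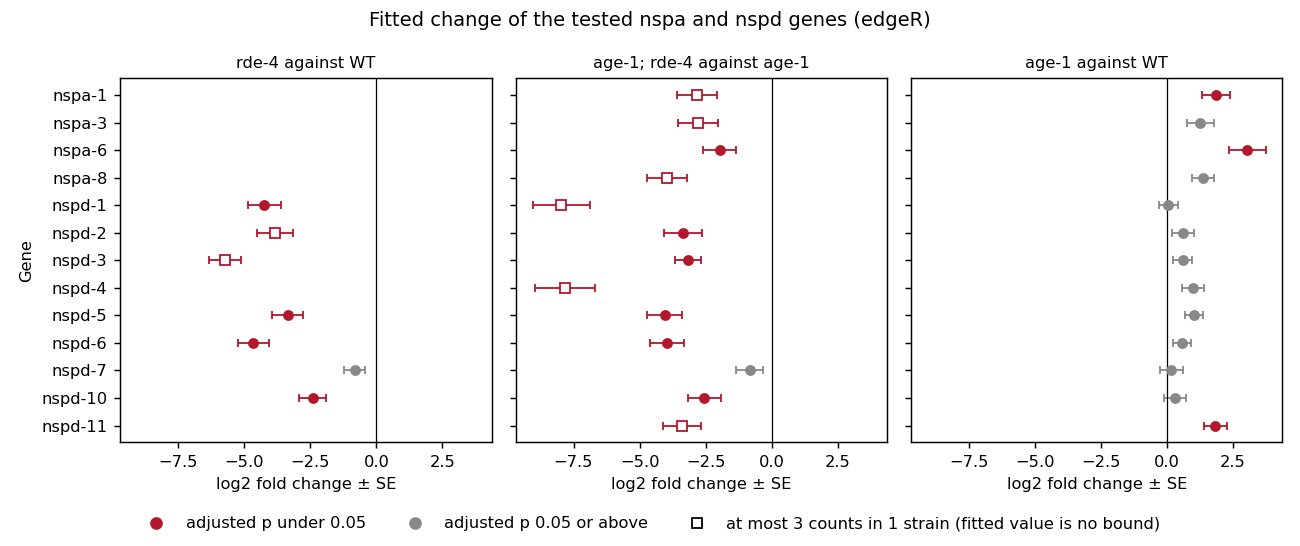
Fitted log2 fold changes (edgeR, ± SE) of the 13 tested nspa and nspd genes for rde-4 against WT, age-1; rde-4 against age-1, and age-1 against WT; red passed an adjusted p of 0.05, and squares mark genes with at most 3 counts in one strain, whose fitted value is no bound. In both comparisons of RDE-4 loss nspd-7 is the gene nearest to 0 (-0.81 and -0.84).

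Counted without a model, among genes with at least 10 counts over the 6 libraries of a comparison, CPM of 11 of 15 members did not overlap between rde-4 and WT, all lower in rde-4, against 12.1% of all such genes. For age-1; rde-4 against age-1 it was 17 of 20 members, all lower, against 15.6% of all such genes. Members near 0 in a strain reached 10 counts only through the strain where they are high. Such were nspd-11 (0 counts in rde-4, 20 in WT), nspd-4 (1 and 52) and nspa-5 (0 in age-1; rde-4, 21 in age-1). These counts of members are therefore also read as a description. The members that overlapped were nspa-6, nspa-7, nspd-7 and nspd-12 for rde-4 against WT, and nspd-7, nspd-9 and nspd-12 for age-1; rde-4 against age-1.

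The age-1 mutation alone went with more nspa small RNAs. The nspa sum was 153, 115 and 135 counts in age-1, against 27, 33 and 40 counts in WT, with a log2 fold change of 1.70 (SE 0.34) and no overlap. The nspd sum was 638, 439 and 457 counts in age-1, against 202, 359 and 269 counts in WT, with a log2 fold change of 0.62 (SE 0.34). On the scale of CPM after TMM over 12 libraries the nspd sum was 128 ± 53.3 in age-1 and 75.3 ± 5.83 in WT (SD, n = 3 each), and the libraries did not overlap (86.8 to 188 in age-1, against 69.8 to 81.4 in WT), whereas as CPM of all counts without TMM factors they did (122 to 223 in age-1, against 73.1 to 131 in WT). The nspa share of nspa plus nspd, which needs no scaling, was 21% ± 1.74 in age-1, against 11.1% ± 2.35 in WT (SD, n = 3 each), without overlap. In the libraries with the rde-4 mutation this share rested on few counts, 19 of 89 in age-1; rde-4 and 25 of 103 in rde-4, and ranged over 13% to 28% in age-1; rde-4 and 6.90% to 45.8% in rde-4.

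By gene, 13 members were tested for age-1 against WT, 3 passed as higher and 0 as lower, where 7.66% of all 5000 tested genes were called higher and 3.28% lower. All 13 fitted values were above 0, and DESeq2 called 3 of 11 higher and 0 lower (19.4% and 1.99% of all genes). As in rde-4 against WT, a gene that is low in WT enters this test only through age-1, where it is high. This holds for nspa-1, nspa-6 and nspd-11, so the 3 of 13 and the common sign are read as a description. The DESeq2 calls were nspd-11, nspd-5 and nspa-8, so that only nspd-11 was called by both tools, and nspa-1 and nspa-6 received no adjusted p from DESeq2. The genes called by edgeR were nspa-1, with 26, 14 and 19 counts in age-1, against 4, 5 and 4 counts in WT (log2 fold change 1.86, SE 0.53, edgeR adjusted p = 0.043), nspa-6, with 19, 14 and 20 counts in age-1, against 0, 3 and 2 counts in WT (3.04, SE 0.68, edgeR adjusted p = 0.031), and nspd-11, with 34, 25 and 29 counts in age-1, against 5, 10 and 5 counts in WT (1.83, SE 0.44, edgeR adjusted p = 0.033). None of these genes overlapped between the strains. The calls hung on single libraries: 0 members were higher without age-1 replicate 1, age-1 replicate 2, WT replicate 1 or WT replicate 3, 2 were higher without WT replicate 2, and 8 without age-1 replicate 3. Calls over all genes swung in the same way. Higher were 10 of 5624 genes without age-1 replicate 1, 9 of 5633 without age-1 replicate 2 and 17 of 5693 without WT replicate 1. They were 48 of 5405 without WT replicate 3, 148 of 5414 without WT replicate 2 and 1171 of 5399 without age-1 replicate 3. With library totals 2 members were higher (all genes 2.66% higher and 0.660% lower), and nspa-1 did not pass (1.96, edgeR adjusted p = 0.073). With the replicate number as a block, which the data pair in this comparison, 6 members were higher, among 21.7% of all genes called higher and 17.5% lower. The 3 added were nspa-8 (1.31, SE 0.42, edgeR adjusted p = 0.012), nspd-5 (0.97, SE 0.29, edgeR adjusted p = 0.0081) and nspd-4 (0.96, SE 0.37, edgeR adjusted p = 0.038).

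Genes that did not pass in age-1 against WT were spread along the range. The nspa gene with most counts, nspa-8, had 36, 27 and 26 counts in age-1, against 8, 8 and 12 counts in WT, without overlap, and its log2 fold change of 1.35 (SE 0.43) missed the threshold (edgeR adjusted p = 0.052), while DESeq2 called it (1.59, SE 0.60, adjusted p = 0.042). For nspa-3 the value was 1.26 (SE 0.51, edgeR adjusted p = 0.089). At the other end, nspd-1 had 50, 40 and 44 counts in age-1, against 36, 41 and 25 counts in WT, and a log2 fold change of 0.05 (SE 0.37, edgeR adjusted p = 0.91). Likewise nspd-7 (0.17, SE 0.45) and nspd-10 (0.30, SE 0.41) had small fitted changes with overlapping libraries. Of members with at least 10 counts, 12 of 21 did not overlap in CPM after TMM and were higher in age-1, against 13.7% of all such genes. These were 7 of 10 nspa and 5 of 11 nspd genes. Some, such as nspa-2 (22 counts in age-1, 4 in WT) and nspa-10 (16 and 4), reached 10 counts only through age-1, so this is a description. Without TMM factors the nspd sum overlapped, and the separation of single genes was not counted on that scale.

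Levels per gene length placed nspd and nspa copies in an overlapping range. In CPM per kb (TMM over 12 libraries, mean ± SD, n = 3), the highest in age-1 were nspd-3 (111 ± 47.2), nspd-5 (104 ± 35.7), nspd-6 (96.9 ± 40.4) and nspa-8 (70.6 ± 27.7). Neighbors in this order did not differ beyond their spread. In WT the order was nspd-3 (66.3 ± 14.6), nspd-6 (59.7 ± 8.44), nspd-5 (46.5 ± 7.04), nspd-1 (45.5 ± 16.1), nspd-7 (35.4 ± 7.43), nspd-10 (34.8 ± 4.04), nspd-2 (25.6 ± 5.74) and nspa-8 (25 ± 6.76), in which neighbors again lay within their spread, apart from nspd-6 with nspd-5 and nspd-10 with nspd-2.

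With both mutations set against rde-4 alone, the families were low in both strains. The nspd sum was 32, 20 and 18 counts in age-1; rde-4, against 38, 27 and 13 counts in rde-4. Its log2 fold change was 0.52 (SE 0.46) with TMM and -0.38 (SE 0.44) with library totals, where the medians of all genes were -0.04 and -0.88. Its sign thus depended on the scaling, while with both scalings it lay above the median of all genes. The nspa sum was 9, 3 and 7 counts in age-1; rde-4, against 12, 2 and 11 counts in rde-4. Only nspd-7 had enough counts for edgeR, with a log2 fold change of 0.05 (SE 0.46, edgeR adjusted p = 0.97), so that 0 of 1 members were called, and 0 had an unadjusted p below 0.05, where 0.531% of all 3581 genes were called higher and 0.335% lower. DESeq2 tested 0 members here. One gene of 6 with at least 10 counts, nspd-3, did not overlap, with 5, 3 and 4 counts in age-1; rde-4, against 0, 1 and 1 counts in rde-4, where 8.27% of such genes did so in this direction. Its scaled sum was 9.28-fold higher (counting interval 2.07 to 85.4), and it reached 10 counts only through age-1; rde-4.

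Whether RDE-4 loss acted differently in the 2 backgrounds was tested as the interaction in a fit of all 12 libraries, where a positive value means a smaller fall in the age-1 background. Of 13 members tested with edgeR 0 passed, where 0.137% of all 5843 genes were called positive and 0.0171% negative. At an unadjusted p below 0.05 there was 1 member, nspd-3 (2.50, SE 0.94, unadjusted p = 0.013, edgeR adjusted p = 0.47), and DESeq2 called 0 of 6 (0.530% of all genes positive and 0.218% negative). The interaction of the nspd sum was -0.07 (SE 0.66) and that of the nspa sum -1.38 (SE 0.73). Without age-1; rde-4 replicate 1 these were -0.93 (SE 0.68) and -2.27 (SE 0.81), and with library totals -1.06 (SE 0.60) and -2.40 (SE 0.72), where the median of all genes was -0.91.

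Several nspa genes are close copies in tandem. On chromosome V, 7 nspa genes lie within 12.8 kb, between positions 14878348 and 14891186 of WBcel235. The pairs nspa-3 and nspa-1, nspa-5 and nspa-4, and nspa-7 and nspa-6 are each spaced by exactly 6368 bases on the same strand, and the Ensembl annotation gives both genes of each pair one name. Their totals over the 12 libraries were nearly equal within a pair: 83 and 76 counts for nspa-3 and nspa-1, 29 and 29 for nspa-5 and nspa-4, and 65 and 69 for nspa-7 and nspa-6. The genes nspa-4 and nspa-2, spaced by 6366 bases and named apart in Ensembl, also had equal totals (29 and 29), so that equal totals were not particular to the pairs with one name. Within the 3 pairs with one name the share of the second gene had a 95% Wilson interval that included equal parts (40.2% to 55.5%, 37.5% to 62.5% and 43.1% to 59.8%). Single values of these genes are therefore uncertain, including the calls of nspa-1, nspa-3 and nspa-6, and the 9 nspa genes of the wider stretch of V, with nspa-8 and nspa-10, span 140.8 kb.

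The nspb, nspc and nspe genes gave no comparison. None passed the filter in any comparison, no gene had more than 4 counts over the 12 libraries, and no single count was above 2. Their 41 counts were 8 in age-1; rde-4, 12 in age-1, 14 in rde-4 and 7 in WT. The highest members by mean CPM were nspb-11 and nspb-12, which tied (2 counts each, all in age-1; rde-4 replicate 2), nspc-14 (4 counts, 1 in each strain) and nspe-8 (3 counts). All 12 counts of age-1 came from replicate 3 (7 nspc, 4 nspe and 1 nspb), and differences between strains were not detectable at this depth. The related nspf genes had 0, 1 and 1 counts over all libraries.

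Other genes of the spermatogenic germline moved in the same libraries. Of 35 msp genes, which encode the major sperm proteins, 24 were tested for rde-4 against WT and 12 were lower and 0 higher (median log2 fold change -1.20, against 0.06 for all genes tested). For age-1; rde-4 against age-1, 22 of 30 tested msp genes were lower and 0 higher (median -1.80, against 0.02), and for age-1 against WT 0 of 31 were called either way (median 0.73, against -0.17). As with the nsp copies, msp genes of similar sequence can share reads. Their calls may therefore not be separate observations, and no msp sum was taken. On a list of 32 genes of spermatogenesis, 15 of 26 tested were lower and 1 higher for rde-4 against WT (median -1.54), 16 of 27 lower and 1 higher for age-1; rde-4 against age-1 (median -2.22), and 9 of 27 higher and 0 lower for age-1 against WT (median 0.95). Over all genes tested, 16.0% were lower and 10.8% higher for rde-4 against WT, and 30.0% and 19.1% for age-1; rde-4 against age-1. For age-1 against WT 3.28% were lower and 7.66% higher, and the medians of all genes are those given beside the msp genes. Of 25 genes of oocytes and hermaphrodite germline 13, 10 and 15 were tested in these 3 comparisons, with 0, 1 and 1 lower and 0 higher in each. Genes of intestine and neurons had 0 tested members, and of 11 genes of body wall muscle 2, 0 and 1 were tested, with 1 higher in rde-4. These lists report small RNAs against the genes and not the cells present, and the part of any change in the number of spermatogenic cells in the nsp values was not tested.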

How the data were processed

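Small RNAs of 12 whole-worm populations (3 per strain; inserts of 18 to 40 bp, reads of 50 bp) were sequenced. The authors used Bowtie within QuasR to map reads to WBcel235 with its RefSeq annotation, allowed up to 50 hits per read and deposited raw antisense counts per gene, neither normalized nor pooled, in 3 tables of 32238 genes, each with the counted gene length. Their tool versions: not given in the sources used here. Repeated columns of WT and age-1 held 0 differing values and were used once, and 0 columns of per-sample values were left unused. Entries without a gene name numbered 0. Reads matching more than one place may be assigned to any of the similar copies, so single nsp genes are uncertain.

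Tests on these counts used the two-sided quasi-likelihood F test of edgeR 4.0.16 (R 4.3.3), with TMM factors and the default filterByExpr, on the 6 libraries of each comparison. Benjamini-Hochberg adjustment ran over all genes tested, with a threshold of 0.05. Subfamily sums replaced their members in a fit of the same kind and are given with SE and no p-value. SE come from the F statistic. Bounds use a floor of 3 counts over a group, and counting intervals are exact 95% binomial. Alternatives were RLE factors, library totals, no filter, DESeq2 1.42.0, one fit of 12 libraries, a replicate block and leaving out each library. The edgeR procedure was also run on simulated counts, with changes placed only in genes of higher WT counts and a fixed spread. That run does not cover members with few counts, and its outcome is not reported here.

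The members, lists and tests were chosen with earlier results of these data known. Named were all members that passed the filter in at least 1 of the 4 comparisons of 2 strains and the member with the highest mean CPM of each subfamily, plus genes named as chosen after their values were seen. The labels number the replicates alike in all strains. Deviations of same-numbered libraries from their strain means correlated at 0.32, 0.19 and 0.40 for rde-4 against WT, 0.33, 0.22 and 0.39 for age-1 against WT, 0.31, 0.10 and 0.14 for age-1; rde-4 against rde-4, and 0.16, -0.17 and 0.15 for age-1; rde-4 against age-1. Unlike-numbered libraries reached at most -0.02, -0.04, 0.07 and 0.25 in the same order of comparisons. The numbers were thus taken to pair libraries for rde-4 against WT and for age-1 against WT. For age-1; rde-4 against rde-4 the pairing was weak and is not established. The main tests held strain only and did not use these pairs, which entered only through the replicate block, an alternative. Positions came from the RefSeq gene table and the Ensembl annotation (release 115) of WBcel235, in which all 64 members were found at overlapping places. Nucleotide sequences were not used here.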

Additional observations from a re-analysis of the deposited data

How the results depend on the processing

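The counts of members called lower (6 for rde-4 against WT, 12 for age-1; rde-4 against age-1) stayed within 1.5 times under every alternative run, at 6 to 8 and 11 to 15, and no value changed sign across a call. Members higher in age-1 against WT were 3, and 6 with no filter, 6 with the replicate block and 0 to 8 when 1 library was left out. The log2 fold change of the nspd sum was -3.75 for rde-4 against WT with nspd-7 left out (chosen after the data were seen). For age-1; rde-4 against age-1 it was -4.43 with library totals, -3.71 with no filter and -3.63 to -2.81 without 1 library. For age-1; rde-4 against rde-4 it was -0.38 with library totals (median of all genes -0.88). Its interaction was -1.06 with library totals (median of all genes -0.91) and -0.93 to 0.31 without 1 library. Leaving out 1 library gave -2.05 to -1.17 for the nspa sum in rde-4 against WT and -3.60 to -2.65 in age-1; rde-4 against age-1, and moved the calls over all genes to 9 to 1924 for age-1 against WT, 8 to 49 for age-1; rde-4 against rde-4 and 1 to 3 for the interaction. The cause of these shifts was not tested. Library totals moved the calls over all genes to 227 higher and 2082 lower for age-1; rde-4 against age-1 (766 and 1201 with TMM), to 12 and 1018 for age-1; rde-4 against rde-4 (19 and 12) and to 133 and 33 for age-1 against WT (383 and 164), and the replicate block moved the last to 1085 and 873 and age-1; rde-4 against rde-4 to 105 and 76. Without a filter 3.58% of genes were called higher and 0.525% lower for age-1 against WT, and 36 and 33 genes for age-1; rde-4 against rde-4. DESeq2 called 819 and 84 for age-1 against WT and 74 and 8 for age-1; rde-4 against rde-4. The interaction over all genes had 8 positive and 1 negative calls, against 0 and 1 with RLE, 2 and 65 with library totals, 17 and 7 with DESeq2 and 20 and 4 with the block. In age-1; rde-4 against age-1, where the numbers did not pair the libraries, the block called 798 genes higher and 1209 lower, members 12 lower. Beyond the calls given for age-1 against WT, the replicate block changed no call of a member. Depth limits what could be compared: no nspb, nspc or nspe gene passed the filter in any comparison, and 0 of 12 nspa genes passed it for rde-4 against WT, where without a filter 11 nspa genes were tested and 0 were called.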
